A study of Mus musculus with 16 samples.

Results

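The type I interferon response genes described here were Stat2, Irf7, Usp18, Isg15, Ifit1, Ifit2, Ifit3, Oasl2 and Rsad2, which are 9 of the 55385 genes of the count table. They were taken by name, through the Ensembl identifiers of the table, and the list of names was drawn up with earlier results of these data known. Short-read RNA-Seq was available for spleen, lung, liver, kidney, heart, muscle and the white and brown adipose depots of wild-type male C57BL/6 mice, either fed or fasted for 24 h, and all mice were bought at 12 weeks of age. No transgene, deletion or drug was used in either group, and both groups came from the same strain and sex. Equal amounts of tissue from the 3 mice of a group were pooled before RNA extraction, so the 16 libraries hold 1 library per tissue and treatment, and the variation between mice was not measured. The question addressed was how the transcripts of these genes differ between the fasting and the fed state in each tissue.

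Type I interferons are secreted proteins that cells release after sensing viral or misplaced nucleic acid. They bind the receptor Ifnar1/Ifnar2, the kinases Jak1 and Tyk2 become active, and a complex that contains phosphorylated Stat2 and Irf9 switches on a large set of interferon-stimulated genes through a promoter element made of repeated GAAA blocks. In healthy tissue a low tonic level of this signalling keeps the same genes expressed at a low level. Stat2 and Irf7 belong to the signalling and feed-forward arm, Usp18 and Isg15 form a ubiquitin-like modifier system with negative feedback, and the Ifit proteins, Oasl2 and Rsad2 are antiviral effectors.

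Promoter stretches are shown for the genes whose windows hold the repeated GAAA element described above. RefSeq windows (GRCm38.p6) from 250 bases before to 50 bases after the start were matched for 8 of the 9 genes, and Usp18 was not matched. The motif GAAA, any 2 bases, GAAA, searched on both strands, was found in the windows of Isg15, Ifit1, Ifit3, Rsad2 and Stat2, that is 5 of 8 genes, against 3.44% of all 32851 promoter windows. In the stretches below, written 5′ to 3′ on the strand of the gene, the capitals mark the matches, and a match on the opposite strand reads TTTC, any 2 bases, TTTC. The 3 matches of Isg15 overlap each other.
Isg15, chr4:156200845-156200926, minus strand: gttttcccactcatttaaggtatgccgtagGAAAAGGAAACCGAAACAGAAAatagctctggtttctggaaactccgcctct
Ifit1, chr19:34640755-34640843, plus strand: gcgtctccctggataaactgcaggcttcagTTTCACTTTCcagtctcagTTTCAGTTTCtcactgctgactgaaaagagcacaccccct
Ifit3, chr19:34583343-34583446, plus strand: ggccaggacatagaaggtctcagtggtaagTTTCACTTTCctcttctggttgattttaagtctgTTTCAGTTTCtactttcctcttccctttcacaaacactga
Rsad2, chr12:26456533-26456602, minus strand: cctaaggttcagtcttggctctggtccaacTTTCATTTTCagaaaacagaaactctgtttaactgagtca
Stat2, chr10:128270248-128270315, plus strand: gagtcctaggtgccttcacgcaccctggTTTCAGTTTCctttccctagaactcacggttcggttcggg

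Measured to its first base, the match lay 66 to 78 bases before the start in Isg15, 85 and 104 bases before it in Ifit1, 122 and 156 bases in Ifit3, 120 bases in Rsad2 and 222 bases in Stat2. The windows of Irf7, Oasl2 and Ifit2 did not hold this motif. The letters TTCNNNGAA, the core of the gamma-activated sequence of interferon-gamma targets, also searched on both strands, were found in 1 of these 8 genes, Ifit2, against 8.3% of all windows.

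The libraries held 14245178 to 36069968 counts assigned to genes, so that 3 counts, the limit that a count of 0 allows, correspond to 0.0832 to 0.211 CPM (the counts of a gene per 1000000 counts of its library). Ratios of fasting to fed are given with exact 95% intervals, which cover counting error only, since reads of one library are not separate animals. The tissue labels were borne out by marker genes. Hepatocyte markers summed to 96321 CPM in fed and 92744 CPM in fasting liver and to at most 1640 CPM elsewhere, and brown adipocyte markers to 5692 and 5095 CPM in brown adipose, where heart came next with 767 CPM. The fed spleen library held 445 CPM of pancreatic acinar markers against 11.6 CPM in the fasting one, and the skeletal muscle markers of brown adipose were at 2293 CPM in the fed and 1064 CPM in the fasting library. In a bulk library, fewer cells of a type and less RNA per cell cannot be told apart.

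All 9 genes were detected, and all were lowest in muscle. Per kilobase of exon, the median level over the 16 libraries was highest for Ifit3 and Rsad2, both at 5.65 CPM per kilobase, followed by Ifit2 (5.44), Stat2 (4.31), Irf7 (3.34), Ifit1 (3.01), Isg15 (2.35), Usp18 (1.54) and Oasl2 (1.48). Stat2, Irf7, Isg15 and Rsad2 were highest in spleen, and Ifit1, Ifit2, Ifit3, Oasl2 and Usp18 in lung, when tissues were ordered by the mean CPM of their 2 libraries. The highest tissue mean exceeded the lowest 28-fold for Irf7 (52.3 against 1.87 CPM), 17.9-fold for Stat2 (103 against 5.74 CPM), 14.4-fold for Rsad2 (74.3 against 5.17 CPM) and 13.2-fold for Oasl2 (39.1 against 2.97 CPM). For Ifit1, Ifit3, Ifit2 and Usp18 the ratio was between 9.09 and 11.4. Neighbouring tissues in these orders often had overlapping ranges of their fed and fasting libraries. The order was clearest for Oasl2, where of the neighbouring pairs only white adipose and spleen overlapped, and least clear for Isg15, Ifit1 and Rsad2, with 5 overlapping pairs each. Spleen and lung overlapped for Usp18, and liver, lung and white adipose formed an overlapping run for Stat2. By these means Rsad2 had an order of its own, with kidney second to spleen and lung second from the bottom, above muscle. In the fed libraries alone it was higher in kidney than in spleen (53.8 and 51.5 CPM) and in lung than in liver (19.5 and 16.4 CPM).

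**Figure D1:**
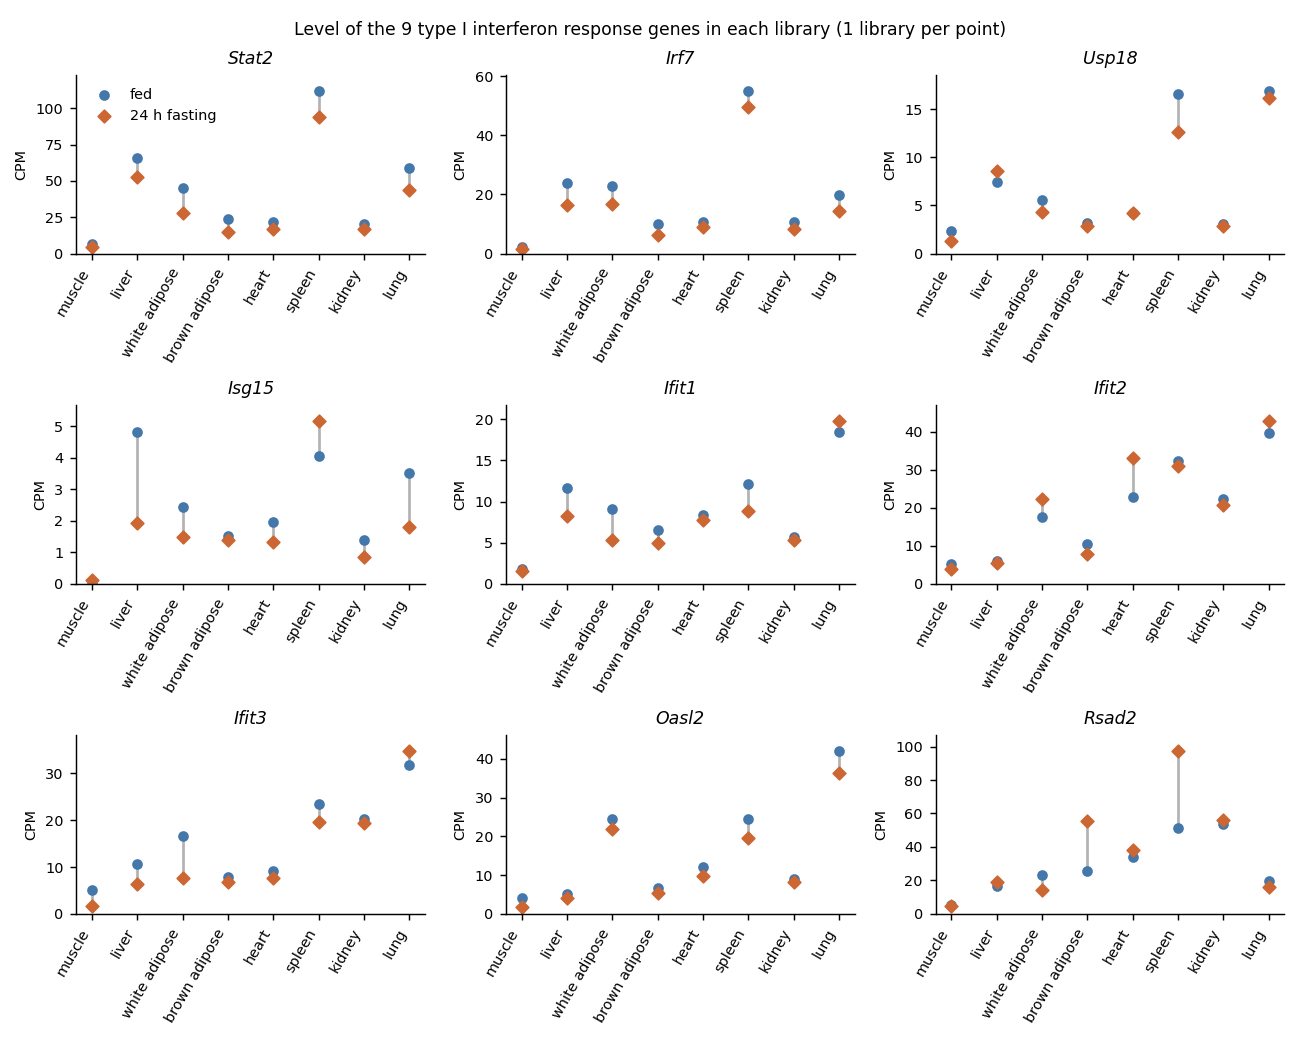
Level in CPM (linear axis from 0) of the 9 genes in the 8 tissues, 1 point per library, circles for fed and diamonds for 24 h fasting, with a grey line joining the 2 libraries of a tissue. Stat2 and Irf7 have the fed library above the fasting one in all 8 tissues, and Rsad2 has the fasting library far above the fed one in brown adipose and spleen.

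Fasting was compared with feeding within each tissue by the thresholds of the study, a log2 fold change above 0.5 in size with 0.01 CPM added to each level and a two-sided Fisher exact p under 0.01, among genes with at least 1 CPM in a library of that tissue. With 1 library a group, such a call compares the 2 libraries and not the conditions. Of 72 pairs of gene and tissue, 71 passed the level filter, since Isg15 in muscle did not. Lower levels in fasting prevailed: 58 of the 72 log2 ratios were below 0, where 56.9% of the 126755 ratios of all genes tested were, 13 pairs were called lower and 3 were called higher. These calls count no variation between pools. An exact test at an assumed coefficient of variation of 0.2 left 2 lower calls, Ifit3 in muscle and Isg15 in liver. It also left 1 higher call, Rsad2 in brown adipose. The fit across tissues described further on had a common coefficient of variation of 0.1956 between libraries, after tissue and treatment. That value includes differences between tissues in the fasting response. A pool effect shared by the tissues is not in it, so variation between pools was not estimated.

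In muscle, 3 of 8 genes tested were called lower, where 16.4% of all genes tested were, and 0 were called higher, where 7.80% were. In liver, 3 of 9 were called lower against 15.8% of all genes, and 0 higher against 7.34%. White adipose had the largest number, 4 of 9 lower against 9.23% of all genes, and 0 higher although 19.8% of all genes were called higher there. In brown adipose, 2 were lower (12.2% of all genes) and 1 was higher (8.68%). Heart had 0 lower (9.65%) and 1 higher (7.01%), and spleen 0 lower (2.33%) and 1 higher (3.62%). Kidney had 0 lower (6.23%) and 0 higher (4.48%), and lung 1 lower (10.1%) and 0 higher (4.23%). The shares were thus above those of all genes for lower calls in muscle, liver, white and brown adipose and slightly so in lung, and below them in the other 3 tissues.

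Over the 9 genes, the median log2 fold change was -0.71 in white adipose, where the median of all genes tested was 0.07. It was -0.48 in muscle (all genes -0.14), and this value is the same with Isg15, which had 0 counts in fed muscle, set at its bound. In liver it was -0.31 (all genes -0.13), in brown adipose -0.31 (-0.03), in heart -0.25 (-0.07), in spleen -0.24 (-0.02), in lung -0.21 (-0.09) and in kidney -0.12 (-0.06). With TMM factors the median was -0.19 in liver, -0.08 in kidney and -0.13 in lung, and with DESeq2 factors -0.19, -0.06 and -0.14. These factors shift all genes of a tissue alike, by 0.13 and 0.12 in liver, so the medians of all genes given above shift with them. With 1 CPM added, the median of the 9 genes in white adipose was -0.47. With the main settings the median of the 9 genes lay below that of all genes in all 8 tissues. The margin was widest in white adipose and narrowest in kidney.

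**Figure D2:**
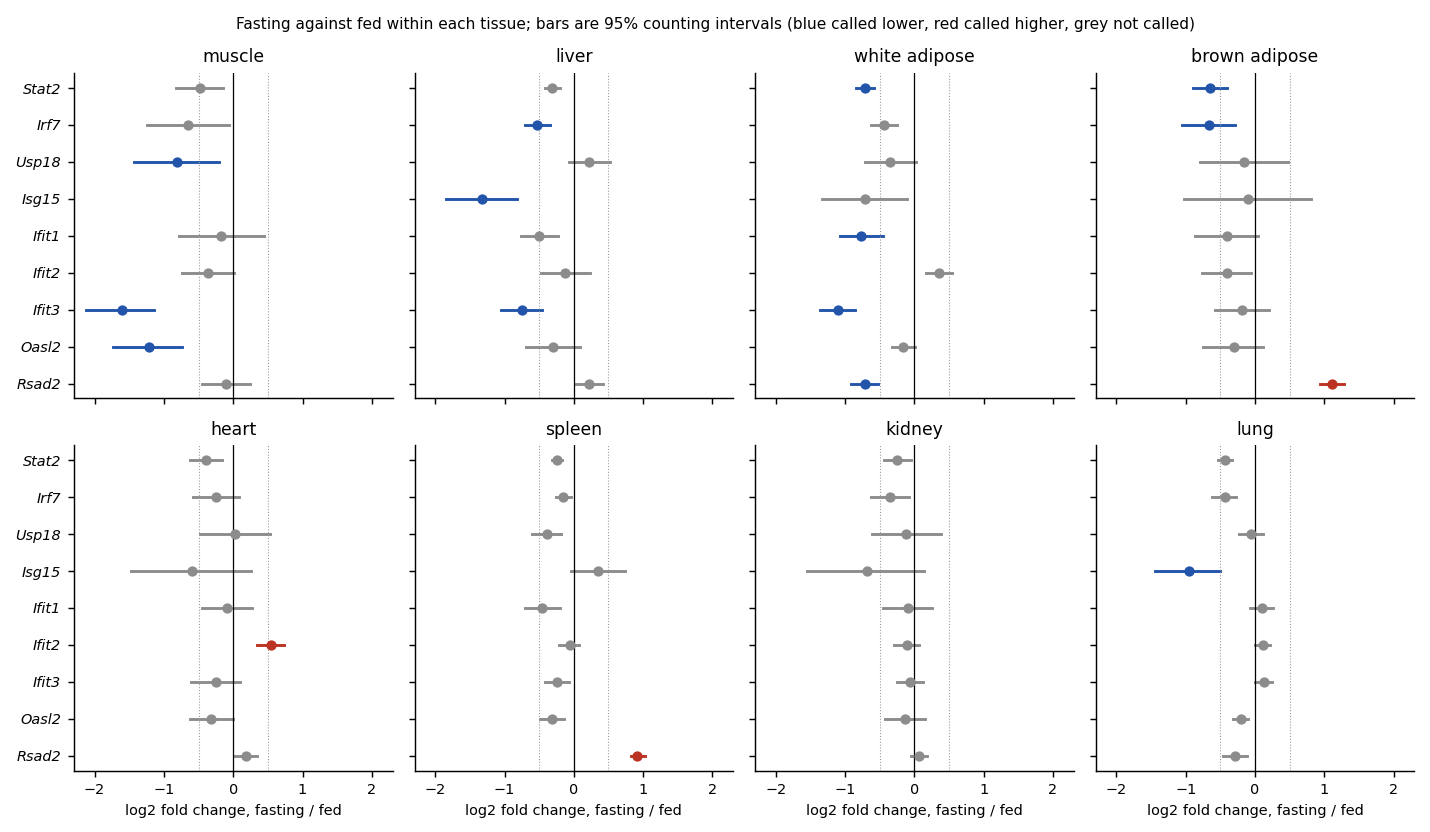
Log2 fold change of fasting over fed for each gene in each tissue; points are the ratio of 2 libraries, bars the exact 95% interval from counts, dotted lines the threshold of 0.5, blue called lower, red called higher and grey not called. Isg15 in muscle is not drawn because the fed library held 0 counts. Most points lie left of 0, and Rsad2 in brown adipose (1.11) and spleen (0.91) stands to the right.

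Stat2 (ENSMUSG00000040033.16, chr10:128270559-128292849, plus strand; all gene positions are GRCm38) encodes the transcription factor that carries the type I signal to the nucleus. It was at 45.3 CPM in fed and 27.6 CPM in fasting white adipose, and at 23.5 and 15 CPM in brown adipose. Both pairs were called lower, with ratios of 0.61 (0.55 to 0.67) and 0.64 (0.54 to 0.76). The fasting library was also the lower one elsewhere, at 4.78 against 6.69 CPM in muscle, 52.8 against 65.6 CPM in liver, 16.7 against 21.9 CPM in heart, 94.2 against 112 CPM in spleen, 16.9 against 20 CPM in kidney and 43.4 against 58.6 CPM in lung. None of these 6 differences reached the fold threshold, and all of their counting intervals lay below a ratio of 1, the highest upper bound being 0.96 in kidney.

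Irf7 (ENSMUSG00000025498.15, chr7:141262706-141266481, minus strand) encodes an interferon-induced factor that amplifies transcription of interferon genes. Its level was 23.8 CPM in fed and 16.5 CPM in fasting liver, and 10.1 and 6.39 CPM in brown adipose. These 2 pairs were called lower, with ratios of 0.69 (0.61 to 0.79) and 0.63 (0.48 to 0.82). With TMM or DESeq2 factors the liver call was lost (log2 -0.40) and white adipose was called lower. In the other tissues the fasting library was lower by less or with fewer counts, at 1.45 against 2.28 CPM in muscle, 16.9 against 22.9 CPM in white adipose, 8.98 against 10.7 CPM in heart, 49.5 against 55 CPM in spleen, 8.22 against 10.5 CPM in kidney and 14.5 against 19.7 CPM in lung. The counting interval included a ratio of 1 in heart only. The 3′ end of Irf7 overlaps Phrf1, on the opposite strand, by 45 bases; the labels call the libraries strand-specific, and the strand setting used in counting is not given in the sources used here.

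Usp18 (ENSMUSG00000030107.10, chr6:121245906-121270917, plus strand) encodes the protease that removes Isg15 from proteins and dampens receptor signalling. It was called lower in muscle, where feeding gave 56 counts and fasting 41, at 2.33 and 1.33 CPM, a ratio of 0.57 (0.37 to 0.87); with TMM or DESeq2 factors this call was lost. The other tissues showed no call, with 5.54 and 4.34 CPM in fed and fasting white adipose, 16.6 and 12.6 CPM in spleen, 7.38 and 8.61 CPM in liver, and 16.9 and 16.2 CPM in lung. Heart, kidney and brown adipose lay between 2.81 and 4.26 CPM, with pairs that differed by less than their counting error. Usp18 overlaps Gm44148 on the opposite strand, which held at most 48 counts in a library.

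Isg15 (ENSMUSG00000035692.7, chr4:156199455-156200796, minus strand) encodes the ubiquitin-like protein itself and had the fewest counts of the 9, at most 144 in a library. It had 111 counts in fed and 48 in fasting liver, 4.82 and 1.92 CPM, a ratio of 0.40 (0.28 to 0.56). In lung it had 106 and 65 counts, 3.53 and 1.8 CPM, a ratio of 0.51 (0.37 to 0.70). Both were called lower, and spleen, the tissue with the highest level, went the other way without a call, at 4.06 CPM in the fed and 5.17 CPM in the fasting library. White adipose (2.45 and 1.49 CPM), heart (1.97 and 1.31 CPM), kidney (1.38 and 0.853 CPM) and brown adipose (1.51 and 1.4 CPM) had the lower value in fasting, again without a call. In muscle Isg15 had 0 counts when fed and 4 when fasted, which is at the limit of detection.

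The Ifit proteins act against viral RNA, and Ifit1 binds RNA that lacks the methylation of the host cap; the 3 genes lie near each other on chromosome 19. Ifit3 (ENSMUSG00000074896.3, chr19:34583531-34588731, plus strand) had the most lower calls of the 9, in 3 tissues. It was at 5.07 CPM in fed and 1.65 CPM in fasting muscle, a ratio of 0.33 (0.23 to 0.45), and at 16.6 and 7.69 CPM in white adipose, a ratio of 0.46 (0.39 to 0.55). In liver the pair was 10.6 and 6.29 CPM, a ratio of 0.59 (0.48 to 0.73). The remaining tissues were close, with 23.4 and 19.7 CPM in spleen, 7.83 and 6.88 CPM in brown adipose, 9.12 and 7.67 CPM in heart, 20.2 and 19.4 CPM in kidney, and 31.8 and 34.7 CPM in lung. Of the 100-base windows of Ifit3 transcripts, 31.7% occur also in the near-copy Ifit3b, so the counts of the pair can be split between them; Ifit3b was at 2.78 CPM in fed and 1.39 CPM in fasting muscle and at 4.85 and 2.37 CPM in white adipose.

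Ifit1 (ENSMUSG00000034459.8, chr19:34640871-34650009, plus strand) was called lower in white adipose, at 9.06 CPM in the fed and 5.32 CPM in the fasting library, a ratio of 0.59 (0.47 to 0.73). Liver (11.6 and 8.21 CPM) and spleen (12.1 and 8.84 CPM) had ratios of 0.71 and 0.73, short of the fold threshold. Lung, with the highest level, was at 18.5 CPM in the fed and 19.8 CPM in the fasting library, and muscle, brown adipose, heart and kidney differed by less than their counting error.

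Ifit2 (ENSMUSG00000045932.12, chr19:34550694-34576419, plus strand) was called in 1 tissue. It was called higher in heart, at 22.8 CPM in the fed and 33.2 CPM in the fasting library, a ratio of 1.45 (1.27 to 1.66). In white adipose, where Ifit1 and Ifit3 were called lower, it was at 17.5 CPM in the fed and 22.4 CPM in the fasting library, a ratio of 1.28 (1.13 to 1.46) without a call. In brown adipose it was at 10.5 and 7.86 CPM, and in muscle at 5.07 and 3.94 CPM. Spleen (32.4 and 31 CPM), kidney (22.2 and 20.6 CPM), lung (39.6 and 42.8 CPM) and liver (5.95 and 5.45 CPM) differed by under 10% between libraries.

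Oasl2 (ENSMUSG00000029561.17, chr5:114896936-114912234, plus strand) encodes a member of the oligoadenylate synthetase-like family, which acts in the recognition of double-stranded RNA. It was called lower in muscle, at 4.15 CPM in the fed and 1.78 CPM in the fasting library, a ratio of 0.43 (0.30 to 0.60). The fasting library was the lower one in the other 7 tissues as well, with ratios from 0.80 in heart to 0.91 in kidney and no call. In lung, the tissue with the highest level, it was at 42 CPM in the fed and 36.3 CPM in the fasting library.

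Rsad2 (ENSMUSG00000020641.16, chr12:26442746-26456452, minus strand) encodes viperin, a radical SAM enzyme of the endoplasmic reticulum and lipid droplets that turns CTP into a chain-terminating nucleotide. It was called in both directions. In brown adipose it was at 25.7 CPM (427 counts) in the fed and 55.5 CPM (791 counts) in the fasting library, a ratio of 2.16 (1.92 to 2.44). In spleen it was at 51.5 CPM (1167 counts) and 97.2 CPM (2704 counts), a ratio of 1.89 (1.76 to 2.02). White adipose went the opposite way, at 23.3 CPM in the fed and 14.2 CPM in the fasting library, a ratio of 0.61 (0.53 to 0.69). Liver (16.4 and 19.1 CPM), heart (33.8 and 38.4 CPM), kidney (53.8 and 56.3 CPM), muscle (5.36 and 4.98 CPM) and lung (19.5 and 16 CPM) had no call.

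Cmpk2, a mitochondrial nucleotide kinase and itself an interferon-stimulated gene, starts 12751 bases from Rsad2 on the other strand (chr12:26469204-26479837) with 0 genes between them; it was picked for this comparison after its values had been seen. It did not share the higher levels of Rsad2. Cmpk2 was at 11.7 CPM in fed and 7.86 CPM in fasting brown adipose and at 25.9 and 22.9 CPM in spleen, and its fasting level was the lower one in all 8 tissues. Isg20, another interferon-stimulated gene picked after its values had been seen, was higher in fasting in both. It was at 3.97 and 5.9 CPM in brown adipose, without a call, and at 21.1 and 32.8 CPM in spleen. The median log2 fold changes of the other interferon-stimulated genes tested in brown adipose and spleen were -0.40 and -0.11. In the brown adipose and spleen libraries, macrophage markers summed to 124 and 154 CPM (fed and fasting) and to 1295 and 1598 CPM, with 6 and 2 of the 7 genes lower in fasting, and none of the 7 was at 0. Erythroid markers were at 3364 CPM in fed and 8178 CPM in fasting spleen, and neutrophil markers at 5.54 and 1.4 CPM in brown adipose and 174 and 113 CPM in spleen. The part of these cells in the Rsad2 difference was not tested.

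Levels of cell type markers also differed between the fed and fasting libraries, in tissues with and without a lower call. In white adipose, B cell markers summed to 350 CPM in the fed and 86.9 CPM in the fasting library, mostly Ighm (338 and 76.3 CPM), natural killer cell markers to 7.38 and 3.65 CPM and macrophage markers to 625 and 599 CPM. In lung, T cell markers were at 112 and 31.4 CPM, B cell markers at 447 and 231 CPM and neutrophil markers at 125 and 71.1 CPM, while lung had 1 lower call of 9. In brown adipose, where Stat2 and Irf7 were called lower, B cell markers were at 20.8 and 11.9 CPM (7 of 7 genes lower), T cell markers at 5.6 and 4.21 CPM (6 of 8) and natural killer cell markers at 3.79 and 1.4 CPM (4 of 5, with 1 gene at 0 in fasting). For the lists given, the number of genes lower in the fasting library was 5 of 7, 4 of 5 and 4 of 7 in white adipose and 8 of 8, 7 of 7 and 6 of 6 in lung, and none of these genes was at 0 there. In muscle, B cell markers were at 49 and 37.9 CPM (7 of 7 lower, with 4 at 0 in fasting), macrophage markers at 70.2 and 61 CPM (7 of 7), and T cell and neutrophil markers under 1 CPM in both libraries. In liver, T cell markers were at 6.03 and 4.53 CPM (6 of 8), natural killer cell markers at 1.65 and 0.881 CPM (4 of 5) and endothelial markers at 221 and 192 CPM (6 of 6), and macrophage markers at 192 and 203 CPM (6 of 7 lower). Lung also had natural killer cell markers at 41.7 and 21.1 CPM (5 of 5) and macrophage markers at 279 and 236 CPM (7 of 7). Heart, with 0 lower calls, had B cell markers at 34.2 and 21.7 CPM (6 of 7), natural killer cell markers at 1.28 and 0.59 CPM (4 of 5) and macrophage markers at 204 and 170 CPM (7 of 7), and kidney, also with 0, had macrophage markers at 131 and 112 CPM (7 of 7). Not all lists were lower in fasting. Endothelial markers were higher in brown adipose (867 and 887 CPM), spleen (451 and 504 CPM) and kidney (433 and 443 CPM), and lower in the other tissues. B cell markers were at 22.8 and 24.6 CPM in kidney (4 of 7 lower) and 8824 and 8944 CPM in spleen (6 of 7). Spleen T cell markers were at 525 and 522 CPM (5 of 8 lower). The part of these cells in the values of the interferon response genes was not tested.

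The only replication in the design is over tissues, so a model with tissue as a block and fasting as the tested term was fitted to all 16 libraries with edgeR's quasi-likelihood test, which leaves 7 residual degrees of freedom. The tissues of a treatment come from the same pool of mice, and the p-values therefore measure spread between tissues and not between mice. Of the 9 genes, 2 were called lower at an adjusted p (Benjamini-Hochberg) under 0.05, where 2.08% of the 17296 genes fitted were, and 0 were called higher, where 2.31% were. Irf7 fell by 0.38 on the log2 scale (SE 0.08, adjusted p = 0.0287 by edgeR) and Stat2 fell by 0.39 (SE 0.08, adjusted p = 0.0303 by edgeR), each lower in 8 of 8 tissues.

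These 2 calls lie close to the threshold. When 1 tissue at a time was left out, Irf7 was called in 1 of 8 fits (edgeR adjusted p from 0.0304 to 0.0707) and Stat2 in 4 of 8 (0.0375 to 0.0796), while the estimates stayed between -0.43 and -0.35 and between -0.42 and -0.33. Irf7 was called without spleen, and Stat2 without kidney, liver, spleen or white adipose. Over all genes fitted, 52 (without brown adipose) to 381 (without spleen) were called lower in these fits, against 359 with all tissues. With no filter on low counts Irf7 was not called (edgeR adjusted p = 0.0568). The remaining estimates did not pass the test. Isg15 was at -0.48 (SE 0.25), Ifit3 at -0.44 (SE 0.18), Oasl2 at -0.31 (SE 0.11), Ifit1 at -0.26 (SE 0.12), Usp18 at -0.15 (SE 0.12), Ifit2 at 0.05 (SE 0.11) and Rsad2 at 0.22 (SE 0.19), with edgeR adjusted p-values from 0.122 for Oasl2 to 0.832 for Ifit2. Oasl2 was lower in all 8 tissues, as were Irf7 and Stat2, and this count of 8 was the same with TMM and DESeq2 scaling.

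The interferons themselves were almost undetected. Of 21 interferon genes, 16 had 0 counts in all 16 libraries, including 13 numbered Ifna genes. Ifnb1 had 1 count in all, Ifnk 2, Ifnab 5 and Ifnz 7. Ifng, the type II interferon, had 44 counts in all and was highest in spleen, at 0.795 CPM in the fed and 0.252 CPM in the fasting library. No interferon gene reached 1 CPM in any library.

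Among 13 genes of the receptor and JAK/STAT arm, 2 were called lower and 0 higher in the fit over tissues (2.08% and 2.31% of all genes fitted), and their median log2 fold change was -0.12, against -0.01 over all genes fitted. Irf1, a factor induced by interferon-gamma and inflammatory signals, fell by 0.48 (SE 0.06, adjusted p = 0.00734 by edgeR), with 40.9 CPM in fed and 24.4 CPM in fasting brown adipose, and the feedback inhibitor Socs1 fell by 1.09 (SE 0.26, adjusted p = 0.0439). With 1 tissue left out, Irf1 was called in 8 of 8 fits and Socs1 in 1 (without spleen; edgeR adjusted p from 0.0266 to 0.104). The receptor chains and kinases showed estimates near 0, at -0.01 for Ifnar1, 0.00 for Ifnar2, 0.11 for Jak1, which had the highest level of the list, and -0.12 for Tyk2. Irf5, a factor of toll-like receptor signalling, was at -0.58 (SE 0.15, adjusted p = 0.0532) and Irf9, which binds DNA in the complex with Stat2, was at -0.18 (SE 0.06, adjusted p = 0.119). The largest positive means were those of Irf2, at 0.18 in the fit, and Ptpn2, at 0.13, without a call.

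**Figure D3:**
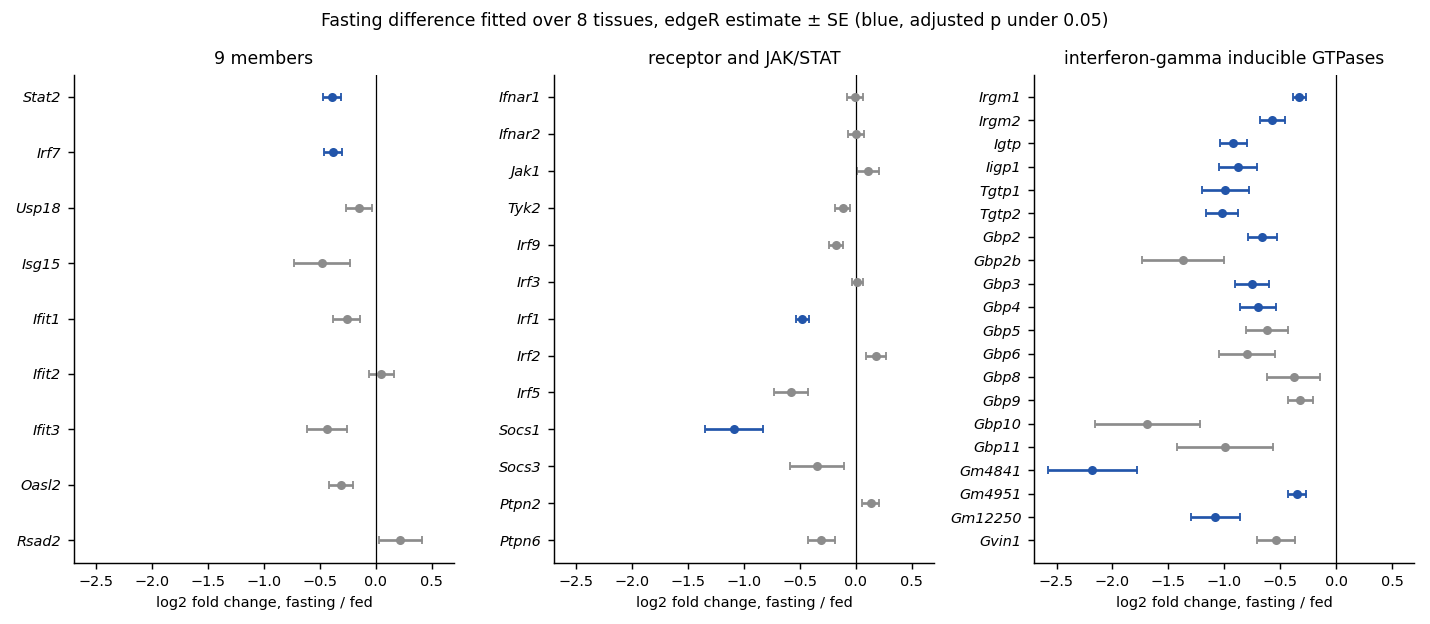
Log2 fold change of fasting over fed fitted across 8 tissues (edgeR estimate, bars ± 1 SE) for the 9 interferon response genes, the 13 receptor and JAK/STAT genes and the 20 interferon-gamma inducible GTPases; blue marks an adjusted p under 0.05. Irf7 and Stat2 are blue among the 9, Irf1 and Socs1 among the 13, and 12 of the 20 GTPases, all of them left of 0.

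Of 14 nucleic acid sensors and their adaptors, 2 were called lower and 0 higher (2.08% and 2.31% of all genes), with a median of -0.28 against -0.01 over all genes fitted. Zbp1, a sensor of Z-form nucleic acid, fell by 0.97 (SE 0.16, adjusted p = 0.0154 by edgeR), and Ddx58, the RNA helicase RIG-I, fell by 0.35 (SE 0.08, adjusted p = 0.0405). With 1 tissue left out, Zbp1 was called in 8 of 8 fits and Ddx58 in 2 (without kidney or spleen; edgeR adjusted p from 0.042 to 0.104), and Ddx58 was not called with no filter (0.0609). The adaptor Mavs, the most abundant of the list, was at 0.11, and the kinase Tbk1 and adaptor Myd88 at 0.21 and 0.19, all without a call. Tmem173, which encodes STING, was at -0.47 (adjusted p = 0.0626). Of the 4 enzymes that attach Isg15 to proteins, 1 was called lower and 1 higher (2.08% and 2.31% of all genes). The activating enzyme Uba7 fell by 0.35 (SE 0.08, adjusted p = 0.0356 by edgeR). Trim25, a ligase that also acts on RIG-I, rose by 0.32 (SE 0.07, adjusted p = 0.0346 by edgeR) and was higher in 8 of 8 tissues. Herc6 was at -0.27 without a call. With 1 tissue left out, Uba7 was called in 3 of 8 fits (without kidney, liver or spleen; edgeR adjusted p from 0.0446 to 0.0881) and Trim25 in 1 (without spleen; 0.0376 to 0.0935). The conjugating enzyme Ube2l6 had an estimate of -0.32 without a call. It was called lower in 4 tissues, muscle, liver (41.8 and 23.6 CPM), white adipose and brown adipose (10.5 and 6.39 CPM), and higher in spleen, at 51.6 CPM in the fed and 84.3 CPM in the fasting library.

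Of 61 other interferon-stimulated genes fitted, 9 were called lower (2.08% of all genes) and 0 higher (2.31%), 54 had an estimate below 0, where 51.8% of all genes fitted did, and the median was -0.26. The genes called were Ifi27l2a (-0.77), the virion tether Bst2 (-0.64), the immunoproteasome subunits Psmb9 (-0.55) and Psmb8 (-0.50), Rtp4 (-0.53), the membrane restriction factor Ifitm3 (-0.52), Trim21 (-0.42), Samd9l (-0.37) and Rnf213 (-0.36), with edgeR adjusted p-values from 0.0154 to 0.0385. Of these, Bst2, Psmb8 and Psmb9 were called in all 8 fits with 1 tissue left out. Ly6e, one of the 2 most abundant of the list beside Rnf213, was at -0.27 without a call, and in liver it was at 154 CPM in the fed and 59.7 CPM in the fasting library. The largest positive means were those of Tor3a (0.40 in the fit) and Ifitm1 (0.29), also without a call.

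The GTPases that act against microbes inside vacuoles respond mainly to interferon-gamma, and their median difference was larger, which is given as a description without a test. All 20 had an estimate below 0 (51.8% of all genes fitted did), 12 were called lower (2.08%) and 0 higher (2.31%), and the median was -0.77, against -0.31 for the 9 type I response genes. Igtp fell by 0.92 (SE 0.12, adjusted p = 0.00534 by edgeR) and Tgtp2 by 1.02 (SE 0.14, adjusted p = 0.00734). Tgtp1 and Tgtp2 are near-identical copies, so their separate values are uncertain. Iigp1, the most abundant, fell by 0.88 (SE 0.17) and was at 483 CPM in fed and 266 CPM in fasting liver. Gm4841 fell by 2.18 (SE 0.40) from levels of at most 10.8 CPM, while Gbp10, at -1.69 (SE 0.47), and Gbp9, at -0.32 (SE 0.11), did not pass the test. The other genes called were Irgm1 (-0.33), Irgm2 (-0.57), Tgtp1 (-0.99), Gbp2 (-0.66), Gbp3 (-0.75), Gbp4 (-0.70), Gm4951 (-0.35) and Gm12250 (-1.08). Without 1 tissue, the number of GTPases called ranged from 2 (without brown adipose) to 12 (without spleen). That of the 61 other genes ranged from 3 (without brown adipose or lung) to 9 (without spleen). Lower calls over all genes fitted were 52 of 17508 without brown adipose, 93 of 16898 without lung and 381 of 17145 without spleen. With all tissues they were 359 of 17296. Without lung, 3 GTPases were called, and 5 without heart, kidney or muscle, 6 without liver and 8 without white adipose. Igtp and Tgtp2 were called in all 8 of these fits.

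**Figure D4:**
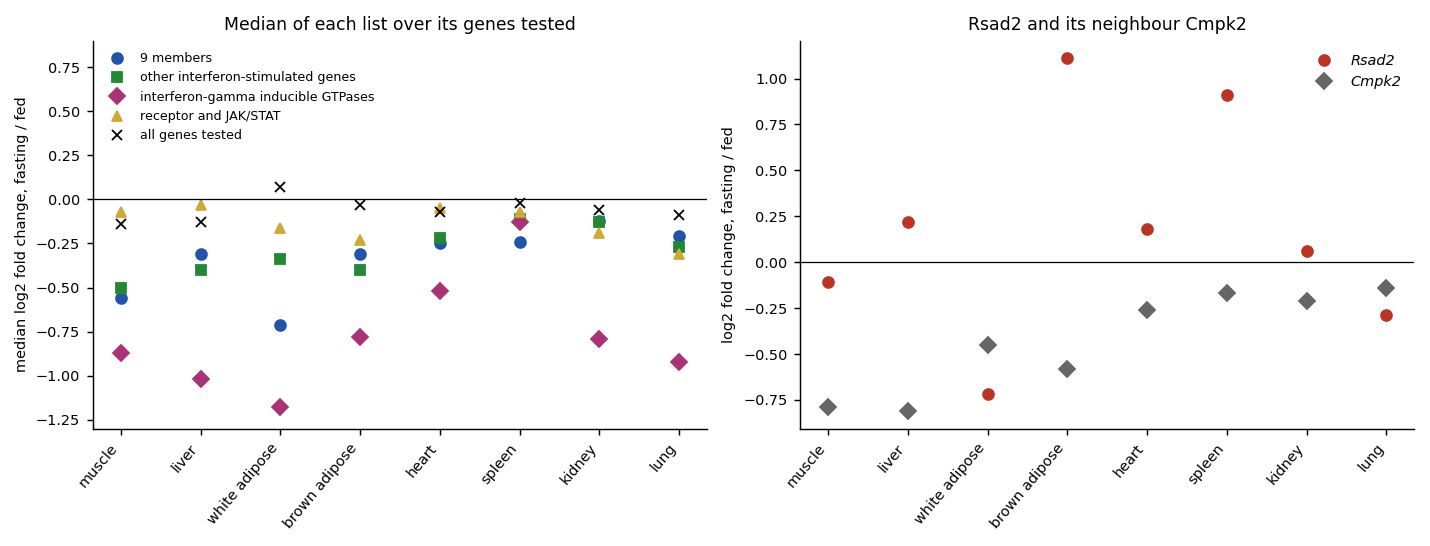
Left, median log2 fold change of fasting over fed in each tissue for the genes of each list with at least 1 CPM there, with all genes tested as crosses. Right, log2 fold change of Rsad2 and of its neighbour Cmpk2 in each tissue. The GTPase medians lie lowest in every tissue but spleen, and Rsad2 and Cmpk2 lie far apart in brown adipose (1.11 and -0.58) and spleen (0.91 and -0.17).

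The fold changes of the 9 genes were mostly weakly correlated over the tissues. This is a description without a test, and counting error can lower such correlations, as for Isg15 with its few counts. The correlation of the log2 fold change of each gene (1 CPM added) with the mean of the other 8 over the 8 tissues was 0.72 for Ifit3, 0.42 for Irf7, 0.41 for Stat2, 0.28 for Rsad2, 0.21 for Oasl2, 0.20 for Ifit1, 0.12 for Usp18, -0.11 for Isg15 and -0.16 for Ifit2. The mean of the 9 was lowest in white adipose (-0.45) and muscle (-0.42) and highest in spleen (-0.06). Among 10784 other genes with at least 1 CPM in all libraries, the profiles most like this mean were those of Prkaa1, a catalytic subunit of AMP-activated kinase (Pearson r = 0.995), Mier3 (0.975), Mpnd (0.961), Arap2 (0.942), Sh3bgrl (0.934), Ndufv3 (0.931), Rap1gds1 (0.930), Plpp6 (0.928), Kctd2 (0.925) and Gm28229 (0.918). These are the extremes of a search over many genes with 8 points that share library totals, and none of the 10 is a gene of the interferon lists.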

How the data were processed

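Per the labels and the submitters' processing notes, the authors pooled tissue of 3 mice per group and took reads through fastp 0.23.2 (trimming), FastQC 0.11.8, HISAT2 2.2.1.0 (alignment, GRCm38) and featureCounts of Subread 2.0; the deposited values are raw counts per gene. How reads matching several genes were counted is not given in the sources used here. The Length column of the table, a deposited other value and not a measurement, was used for levels per kilobase. Here, CPM were taken on library totals, and Fisher exact tests and exact binomial (Clopper-Pearson) intervals came from scipy 1.17.1. Across tissues, edgeR 4.0.16 was used (TMM, filterByExpr by treatment, quasi-likelihood test, Benjamini-Hochberg over all genes fitted); DESeq2 1.42.0 was an alternative. Both steps were tested on simulated data with 200 changed genes. The Fisher step recovered 197 to 200 in a tissue with 36 to 74 false calls, and the edgeR step 200 with 8 false calls. These genes were well counted in every tissue, with log2 changes of 1 or 2 in size that were equal in all tissues. The counts for the Fisher step held no variation between libraries beyond counting, and those for edgeR a fixed one. Smaller changes, or changes that differ between tissues, were not simulated. The filter by treatment was settled after results of both forms of the filter had been seen. The genes and lists were chosen with earlier results of these data known. The rule for names took all 9 genes, each list gene called across tissues and the 10 most similar profiles. It also took the 2 highest in level and the 2 largest mean rises and falls of a list (1 CPM added). Ifnar2, Tyk2, Irf9, Ifit3b, Cmpk2, Isg20, Herc6, Ifnab, Ifnb1 and Ifnk were named outside this rule, after their values had been seen. One item is not reported here.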

Additional observations from a re-analysis of the deposited data

Results flagged for a closer look

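Rsad2 was the only one of the 9 genes with calls in opposite directions, a log2 fold change of 1.11 in brown adipose and 0.91 in spleen against -0.72 in white adipose. The difference between these tissues was not tested, because each tissue has 1 library per treatment.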

How the results depend on the processing

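Within tissues, a pseudocount of 1 CPM, a total without the 10 highest genes and all genes with a count gave the same 16 calls. TMM and DESeq2 factors gave 13 lower and 3 higher calls too, but without Usp18 in muscle and Irf7 in liver and with Isg15 and Irf7 in white adipose; 57 of 72 ratios were then below 0. These factors moved the log2 ratios by 0.13 and 0.12 in liver and by -0.10 and -0.12 in white adipose, and the liver median of the 9 genes went from -0.31 to -0.19 under both. An adjusted p under 0.05 gave 15 lower calls and 3 higher. With a log2 fold change above 1, 4 lower calls and 1 higher were left. The lower calls were Ifit3 and Oasl2 in muscle, Isg15 in liver and Ifit3 in white adipose. Brown adipose and lung then had 0 lower calls, and heart and spleen 0 higher. The higher call was Rsad2 in brown adipose. With an exact test at an assumed coefficient of variation of 0.2, 1 lower call each was left in muscle and liver and 1 higher in brown adipose (Ifit3, Isg15 and Rsad2), with 0 lower in white adipose, brown adipose and lung and 0 higher in heart and spleen. At 0.4, the number was 0 in every tissue and direction.

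Across tissues, library totals, DESeq2's Wald test and robust dispersion called Irf7 and Stat2, and so did a filter on the full model, which was run first and kept as an alternative after the data had been seen (442 genes called among 23580, against 759 among 17296). With no filter 1 was called, Stat2, and without the tissue block 0, where edgeR called 1 gene in all and 0 of the 9 had an unadjusted p under 0.05. Leaving out each tissue gave 0 to 2 lower calls among the 9. The number was 0 without brown adipose, heart, lung or muscle, and 1 without kidney, liver or white adipose. Over all genes fitted, 52, 60, 93 and 76 were called lower without brown adipose, heart, lung and muscle, in this order. With all tissues, 359 were. The cause was not tested. Ifit2 changed sign without heart (-0.04), its range being -0.04 to 0.10. For 4 of the wider lists the same alternatives were added after seeing the data, and these 4 had 0 genes called lower without the tissue block; Uba7 and Trim25 were not called there either, and Uba7 was not called with no filter or with the filter on the full model. Receptor and JAK/STAT genes had 1 called lower with the filter on the full model and 1 to 3 with a tissue left out. Sensors had 4 genes called lower by DESeq2, 1 with no filter, 1 with the filter on the full model and 1 to 2 with a tissue left out. Other interferon-stimulated genes had 14 with library totals, 18 by DESeq2 and 3 to 9 with a tissue left out, and GTPases 2 to 12. Over all genes, lower calls were 638 of 17296 with library totals and 988 of 37084 by DESeq2. They were 303 of 37084 with no filter, 198 of 23580 with the filter on the full model and 52 to 381 with a tissue left out. With 1 library a group there are no residual degrees of freedom within a tissue, and depth limits Isg15, whose highest count was 144.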
